A study of Mus musculus with 12 samples.

Results

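The interferon response genes described here were a list of 41 mouse genes that type I interferons or interferon gamma are known to induce, chosen by name. The list held 31 genes placed in a type I class and 10 placed in an interferon gamma class, although most of these genes respond to both kinds of interferon. A probe carried the name of 37 of them on the arrays. No probe used here named Oas2, Eif2ak2, Ifi44 or Parp9. Ifit1, Rtp4 and Xaf1 lay below the filter on dim probes, with values of 4.20 to 4.79 on a log2 scale, and were not tested. The remaining 34 genes, 24 of the type I class and all 10 of the interferon gamma class, were tested among 12119 genes in all.

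The 12 Illumina arrays measured RNA from CD4+ T cells of C57BL/6 mice. Donor T cells were naive (CD44low), carried a Foxp3-GFP reporter and an allotype mark, and were either Blimp1-sufficient (Ctrl) or Blimp1-deficient (Blimp1 CKO, here CKO). Blimp1, encoded by Prdm1, is a transcriptional repressor of effector lymphocytes. Both genotypes were mixed in equal parts in RAG1-/- hosts, which lack T and B cells but keep innate cells, and were sorted 6 to 8 weeks later into Foxp3+ regulatory (pTreg) and Foxp3- effector (Teff) cells. The labels give an age of 8 to 12 weeks, one pool of spleen, mesenteric lymph node and large intestine lamina propria as the tissue, and 4 h of stimulation with PMA and ionomycin. All 4 groups (Ctrl pTreg, CKO pTreg, Ctrl Teff and CKO Teff; n = 3 arrays each) shared the reporter, the host, the transfer and the stimulation. The labels name neither the Cre driver of the deletion nor the animals behind each array, so the p-values reflect only how far these arrays spread, which may be technical. Array medians lay between 4.66 and 4.68, and the number of arrays limits the precision.

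Foxp3 read 7.29 to 8.94 on the pTreg arrays and 4.42 to 4.85 on the Teff arrays. The Prdm1 probe was higher, not lower, on the arrays labelled CKO: 8.47 to 9.48 against 5.19 to 6.07 in pTreg, and 7.83 to 9.0 against 4.64 to 5.39 in Teff. Whether this probe lies in the deleted part of Prdm1 is not known here, so it does not check the genotype labels, and every genotype difference below is between arrays labelled CKO and arrays labelled Ctrl. The summed T cell markers tested (4 of 7 listed) read a mean of 9.49 to 10.39 on every array; among them Cd3e read 10.76 to 12.22, while Cd4 read only 4.95 to 6.40. All 10 neutrophil markers were tested and their mean ran from 6.08 to 10.48 between arrays. The mean of 7 of 10 monocyte and macrophage markers ran from 5.33 to 8.11.

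Type I interferons (the interferon alphas and interferon beta) signal through one receptor, the kinases Jak1 and Tyk2 and a complex containing Stat2 and Irf9 that binds the interferon-stimulated response element (ISRE). Interferon gamma, made by activated T cells and NK cells, signals through its own receptor, Jak1 and Jak2 and acts on genes through the gamma-activated site (GAS), and it induces Irf1, a further factor that binds ISRE sequences. The induced proteins block viral replication, sense nucleic acids, attack pathogen-containing vacuoles and feed the antigen presentation pathway.

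The sequence that the type I complex reads was found in 16 of the 32 listed genes with a promoter in the table, and 6 of these promoters are shown to let a reader see it. In RefSeq promoters (build GRCm38.p6, from 250 bases before to 50 bases after the annotated start), which matched 32 of the 41 genes, the ISRE core GAAANNGAA on either strand was thus present in 50%, against 9.76% of all 27025 genes with a promoter. It was present in 12 of 23 type I class genes (52.2%) and in 4 of 9 interferon gamma class genes (44.4%). The GAS sequence TTCNNNGAA was present in 9 of the 32 (28.1%), against 9.55% of all genes. These are matches of letters and not measured binding sites. The windows below are 60 bases long, run 5′ to 3′ on the strand of the gene, lie upstream of its start, and have the ISRE core in capitals, merged where matches overlap.
Isg15: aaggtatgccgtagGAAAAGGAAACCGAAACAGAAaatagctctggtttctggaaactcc
Rsad2: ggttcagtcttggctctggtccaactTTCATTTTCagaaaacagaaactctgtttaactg
Bst2: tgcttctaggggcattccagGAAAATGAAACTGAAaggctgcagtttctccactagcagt
Oas3: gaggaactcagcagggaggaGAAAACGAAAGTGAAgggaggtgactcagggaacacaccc
Ifih1: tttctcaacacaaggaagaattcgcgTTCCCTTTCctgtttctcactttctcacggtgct
Igtp: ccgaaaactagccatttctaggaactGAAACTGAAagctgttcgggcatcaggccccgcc
The Isg15 window (chr4:156200851-156200910, minus strand) held 3 overlapping matches, the nearest to the start beginning 66 bases before it. The windows of Bst2 (chr8:71537563-71537622, minus strand) and Oas3 (chr5:120777695-120777754, minus strand) held 2 overlapping matches each. Rsad2 (chr12:26456538-26456597, minus strand) and Ifih1 (chr2:62646334-62646393, minus strand) held 1 match each, in the opposite orientation. Igtp (chr11:58199496-58199555, plus strand), the interferon gamma class gene of the set, held 1 match, which began 34 bases before the start. Isg15, Rsad2 and Bst2 were chosen because their array values varied widely, Oas3 and Ifih1 because they read near the array median in spite of the match, and Igtp because it had one of the larger differences between cell types.

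Across the 12 arrays, the type I class was highest on one array of each Teff group, the array numbered 2, in both genotypes. This grouping of arrays was seen in the values and was not part of the study's design. The mean of the 24 type I class genes was 5.64, 7.11 and 5.60 on the Ctrl Teff arrays numbered 1, 2 and 3, and 6.23, 7.39 and 5.90 on the CKO Teff arrays. On the Ctrl pTreg arrays it was 6.51, 6.21 and 6.25, and on the CKO pTreg arrays 5.96, 6.03 and 5.94. The pTreg arrays were therefore close together within each genotype, whereas the Teff arrays of one genotype spread over more than 1 log2 unit. The 10 interferon gamma class genes averaged 9.81, 9.67 and 9.65 on the Ctrl pTreg arrays and 9.28, 9.17 and 9.44 on the CKO pTreg arrays. They averaged 8.35, 9.30 and 8.21 on the Ctrl Teff arrays and 9.35, 9.42 and 8.33 on the CKO Teff arrays.

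**Figure D1:**
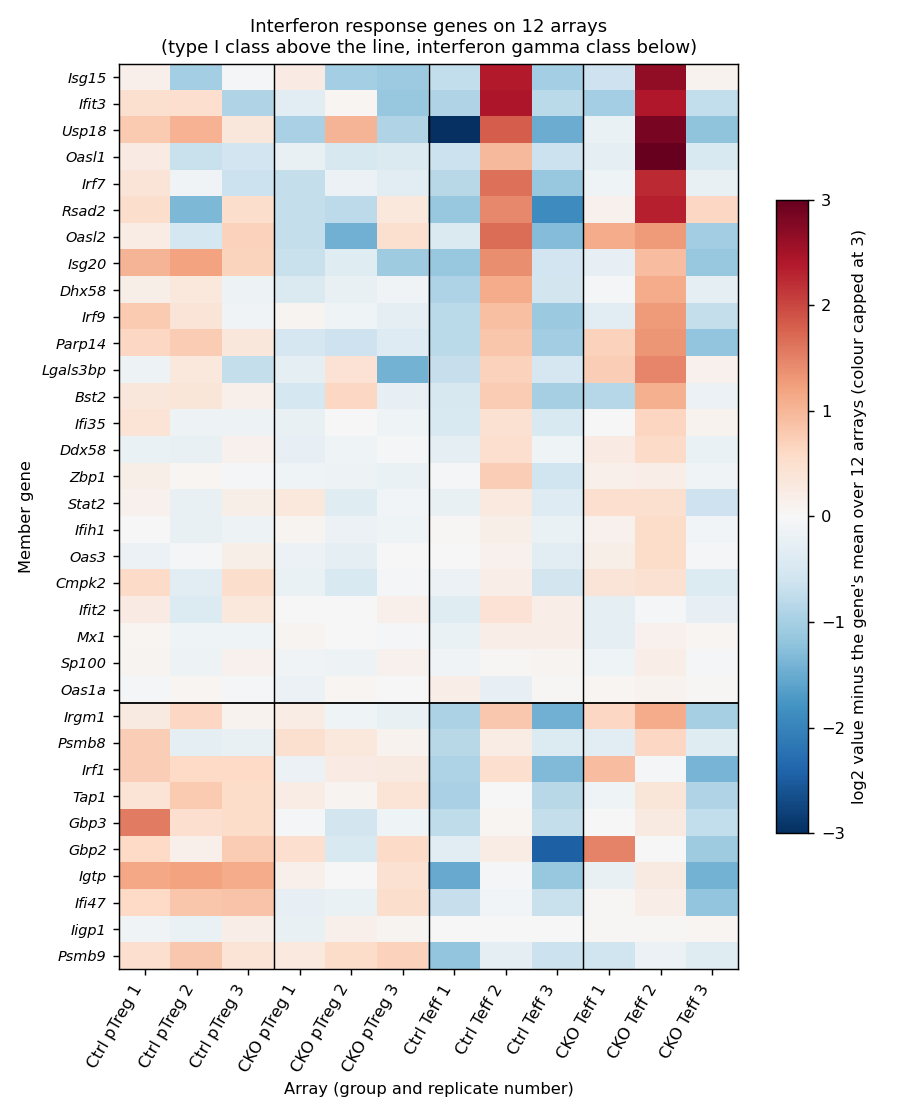
Each row is an interferon response gene and each column an array; colour gives the log2 value minus the gene's mean over 12 arrays, capped at 3. Red cells gather in the columns Ctrl Teff 2 and CKO Teff 2 above the line (type I class), and in the Ctrl pTreg columns below it (interferon gamma class).

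Of the 34 genes, 28 (82.4%) were highest on the array numbered 2 among the 3 Teff arrays of both genotypes, against 17.0% of all 12119 genes. They were 21 of the 24 type I class genes and 7 of the 10 interferon gamma class genes. In 10 genes (29.4%, against 0.718% of all genes) that array stood at least 1 log2 unit above both others in both genotypes: Irf7, Irf9, Isg15, Isg20, Usp18, Dhx58, Oasl1, Ifit3, Rsad2 and Bst2. Over these 10 genes the array numbered 2 exceeded the mean of the other two by 1.50 to 4.12 log2 units in Ctrl Teff and by 1.28 to 3.56 in CKO Teff. The medians over all 34 genes were 1.15 and 0.82, and over all genes tested -0.05 and -0.04.

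Isg15, a ubiquitin-like modifier, read 8.25, 11.36 and 7.95 on the Ctrl Teff arrays and 8.36, 11.65 and 9.09 on the CKO Teff arrays. In pTreg it read 9.13, 7.96 and 8.94 (Ctrl) and 9.24, 7.97 and 7.90 (CKO). The array numbered 2 was thus the highest of both Teff groups and among the lower arrays of both pTreg groups. Usp18, the protease that removes Isg15 and damps the type I receptor, read 4.98, 9.91 and 6.60 in Ctrl Teff and 7.88, 10.93 and 6.87 in CKO Teff. Its pTreg values were 8.86, 9.13 and 8.41 in Ctrl and 7.10, 9.10 and 7.18 in CKO. Usp18 had the widest range between single arrays of these examples.

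Irf7, the factor that amplifies interferon alpha production, read 4.84, 7.32 and 4.54 in Ctrl Teff and 5.54, 7.92 and 5.45 in CKO Teff. Irf9, the DNA-binding subunit of the type I complex, read 7.41, 9.11 and 7.10 in Ctrl Teff and 7.88, 9.48 and 7.49 in CKO Teff. Both factors varied less in pTreg, where Irf7 lay between 4.96 and 6.05 and Irf9 between 7.94 and 8.99. Ifit3, a binder of viral RNA, read 5.26, 8.58 and 5.35 in Ctrl Teff and 5.13, 8.56 and 5.42 in CKO Teff, so that the array numbered 2 stood above the highest pTreg value of 6.66 and the others were nearer to the lowest, 5.03. Oasl1, a relative of the 2′-5′ oligoadenylate synthetases, read 4.60, 6.22 and 4.59 in Ctrl Teff and 4.97, 8.39 and 4.79 in CKO Teff. Dhx58 (LGP2, an RNA sensor) read 4.65, 6.70 and 5.04 in Ctrl Teff and 5.55, 6.70 and 5.30 in CKO Teff. Bst2 (tetherin, which holds budding virions at the cell surface) read 6.96, 8.20 and 6.45 in Ctrl Teff and 6.59, 8.51 and 7.28 in CKO Teff, against 6.92 to 8.07 over the pTreg arrays. These 6 genes shared the same highest Teff array and differed in the order of the arrays numbered 1 and 3.

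**Figure D2:**
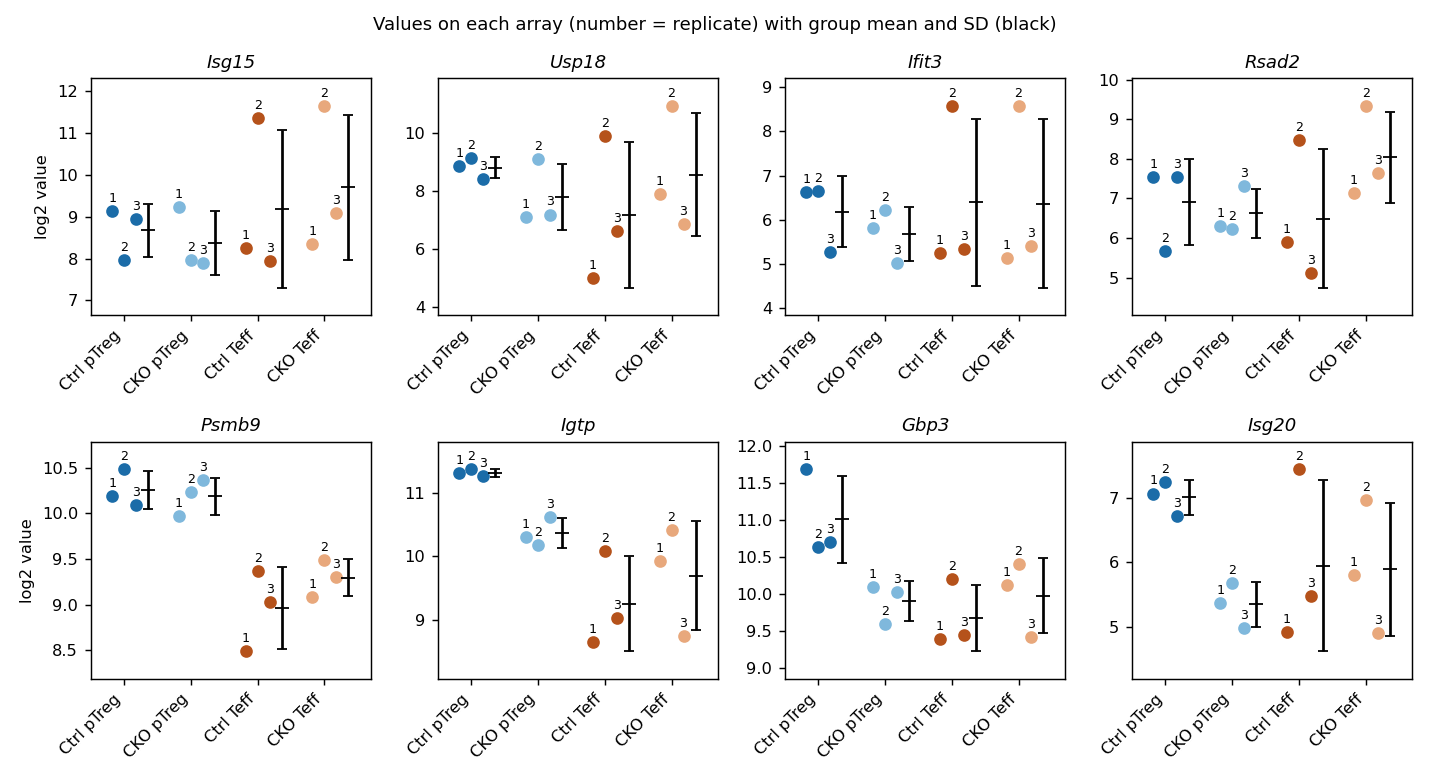
log2 values of 8 interferon response genes on each array (points, labelled by replicate number), with the mean and SD of each group of 3 arrays beside them. Isg15, Usp18, Ifit3 and Rsad2 are highest on the Teff arrays numbered 2, while Psmb9 is at 9.97 or above on every pTreg array and at 9.49 or below on every Teff array.

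The means of some marker lists of other cells were highest on the same arrays, though not every marker in them was. The neutrophil list averaged 8.50, 10.48 and 6.59 on the Ctrl Teff arrays and 9.14, 9.89 and 7.54 on the CKO Teff arrays, so it was also highest on the array numbered 2 of both. The monocyte and macrophage list averaged 6.46, 8.11 and 5.33 in Ctrl Teff and 7.34, 7.69 and 6.34 in CKO Teff. In it Lyz2, Lyz1 and Cd14 were highest on the array numbered 2 of both. Csf1r (4.73 to 5.24 over all arrays) and Adgre1 (4.31 to 4.73) were lowest on that array in CKO Teff. The dendritic cell list (5 of 9 tested) averaged 5.81, 7.14 and 6.36 in Ctrl Teff and 7.83, 8.38 and 7.49 in CKO Teff. Of its genes, H2-Aa, H2-Ab1 and Cd74 were highest on the array numbered 2 of both. Batf3 was highest on the array numbered 3 of both (6.24 and 6.72), and Flt3 stayed between 4.45 and 4.84 on all arrays. In pTreg the neutrophil list was lowest on the array numbered 2, with 9.35, 6.46 and 9.25 in Ctrl and 8.47, 6.08 and 8.68 in CKO. Of the 24 type I class genes, 7 (29.2%, against 15% of all genes) were also lowest on that array in both pTreg groups, and 6 (25.0%, against 12.4%) were highest on it in both. Of those lowest on it, Rsad2 read 7.54, 5.66 and 7.55 in Ctrl pTreg and 6.31, 6.22 and 7.32 in CKO pTreg. Oasl2, a relative of Oasl1, read 6.26, 5.50 and 6.74 in Ctrl and 5.33, 4.61 and 6.51 in CKO. Of those highest on it, Ifit3 read 6.63, 6.66 and 5.27 in Ctrl pTreg and 5.81, 6.22 and 5.03 in CKO pTreg. Bst2 read 7.797, 7.805 and 7.610 in Ctrl and 6.92, 8.07 and 7.21 in CKO. Usp18 and Isg20 were also highest on it in both. The list of NK and CD8 T cell markers (6 of 9 tested) read 5.37 to 5.94 on all arrays but those of CKO Teff, where it was 7.08, 8.06 and 6.02. Within that list the NK receptor genes Klra7 and Klre1 reached 10.84 and 10.33 on the CKO Teff array numbered 2, while Klrb1c stayed between 4.17 and 4.80 on all arrays. Cd8b1, a CD8 chain gene of the list, read 8.45 to 10.02 over all arrays. It was lowest on the array numbered 2 of both Teff groups: 9.52, 8.80 and 9.87 in Ctrl and 9.31, 8.45 and 9.90 in CKO. The other CD8 chain gene of the list, Cd8a, lay below the filter at 4.13 to 4.52 over all arrays. So did the NK receptor gene Ncr1, at 4.13 to 4.67. The single B cell marker tested of 5, Cd79b, stayed between 4.34 and 4.91, near the array median. The part of these markers in the values of the interferon response genes was not tested.

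**Figure D3:**
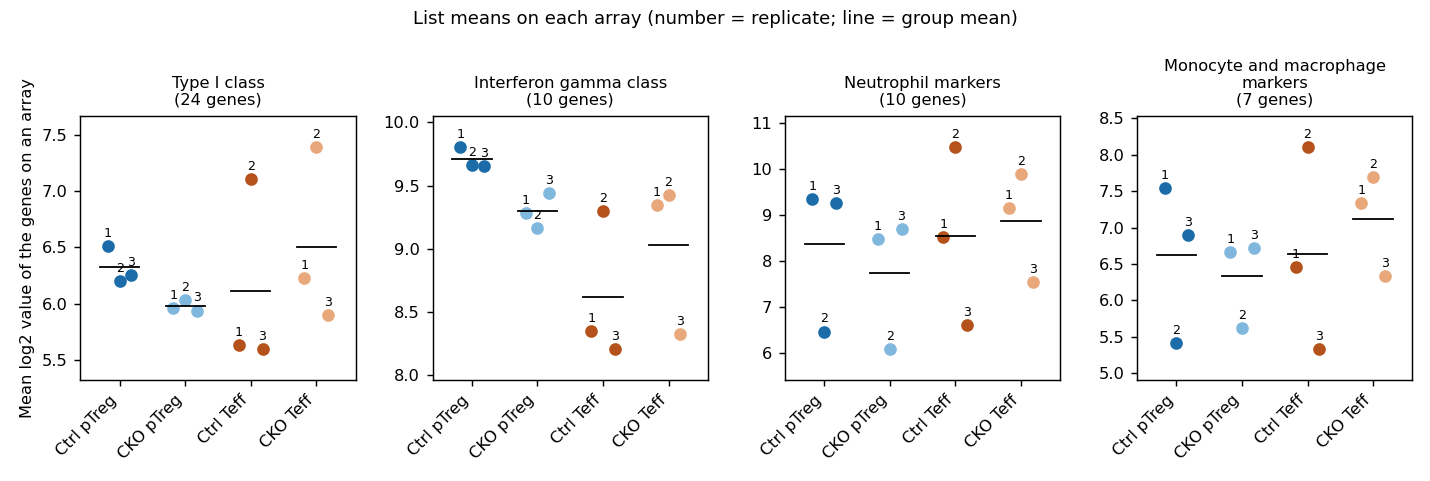
Mean log2 value of 4 gene lists on each array (points, labelled by replicate number; line, group mean of 3 arrays). The type I class and the neutrophil and monocyte markers all peak on the Teff arrays numbered 2, and in pTreg the neutrophil mean drops to 6.46 and 6.08 on the arrays numbered 2, where the type I class mean is 6.21 and 6.03.

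The comparison of pTreg with Teff asks whether the regulatory cells carried another interferon signature than effector cells sorted after the same kind of transfer. In Ctrl arrays the interferon gamma class was higher in pTreg in 9 of 10 genes, with a median log2 difference of 1.23, while the type I class was higher in 14 of 24 with a median of 0.04. Over all genes tested the median was 0.01, and 52.4% were higher. One gene passed the threshold (limma, Benjamini-Hochberg adjusted p under 0.05 over all 12119 genes): Psmb9, an interferon-induced subunit of the immunoproteasome, was higher in pTreg. Of all genes, 0.602% passed in that direction. Values of both groups did not overlap in 6 genes, all higher in pTreg (Irf1, Gbp3, Igtp, Ifi47, Tap1 and Psmb9), against 14.3% of all genes that did not overlap in either direction.

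Psmb9 read 10.19, 10.48 and 10.09 on the Ctrl pTreg arrays and 8.49, 9.37 and 9.03 on the Ctrl Teff arrays, so every pTreg value lay above every Teff value. The log2 difference was 1.29 ± 0.22 (SE; 95% interval 0.81 to 1.77; limma adjusted p = 0.0221). This call was lost when the Ctrl pTreg array numbered 1 (adjusted p = 0.0759) or 2 (0.120), or the Ctrl Teff array numbered 1 (0.0653), was left out, and when only the 6 Ctrl arrays were fitted (0.109), with differences of 1.05 to 1.32. In CKO arrays Psmb9 read 9.97, 10.23 and 10.36 in pTreg and 9.09, 9.49 and 9.31 in Teff, again without overlap, with a difference of 0.89 ± 0.22 (limma adjusted p = 0.126). Psmb8, its partner subunit in the immunoproteasome, read 11.30, 10.25 and 10.32 in Ctrl pTreg and 9.73, 10.77 and 10.14 in Ctrl Teff, and the groups overlapped (0.41 ± 0.36). Tap1, one subunit of the transporter that loads peptides onto MHC class I, read 8.59, 8.96 and 8.73 in Ctrl pTreg and 7.20, 8.19 and 7.35 in Ctrl Teff. Its difference was 1.18 ± 0.32 (limma adjusted p = 0.152), and in CKO arrays 0.45 ± 0.32 (adjusted p = 0.706).

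The interferon-inducible GTPases, which coat and disrupt pathogen vacuoles, included the largest difference of the class and its only negative one. Igtp (Irgm3), which guards host membranes against these GTPases, read 11.31, 11.37 and 11.26 in Ctrl pTreg and 8.65, 10.09 and 9.02 in Ctrl Teff. Its log2 difference was 2.06 ± 0.42 with a limma adjusted p of 0.0528, just outside the threshold, and the lowest pTreg array stood above the highest Teff array. Gbp3, a guanylate-binding protein, read 11.69, 10.64 and 10.70 in Ctrl pTreg and 9.39, 10.19 and 9.43 in Ctrl Teff (1.34 ± 0.35, adjusted p = 0.132). Ifi47 had a difference of 1.24 ± 0.35 (adjusted p = 0.166) and Gbp2 one of 1.34 ± 0.72 (adjusted p = 0.605). Irgm1 had one of 0.85 ± 0.60 (adjusted p = 0.742), with overlapping groups. The other, dimmer probes kept gave 0.22 and -0.17 for Gbp2, 0.07 for Irgm1 and 1.26 for Gbp3. Iigp1, the exception in sign, stayed between 4.38 and 4.80 on all arrays, near the array median. Irf1, a transcription factor induced by interferon gamma, read 11.43, 11.30 and 11.31 in Ctrl pTreg and 9.79, 11.21 and 9.37 in Ctrl Teff (1.22 ± 0.55, adjusted p = 0.485). Its pTreg values lay close together (SD 0.07, n = 3) and its Teff values spread widely (SD 0.97).

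**Figure D4:**
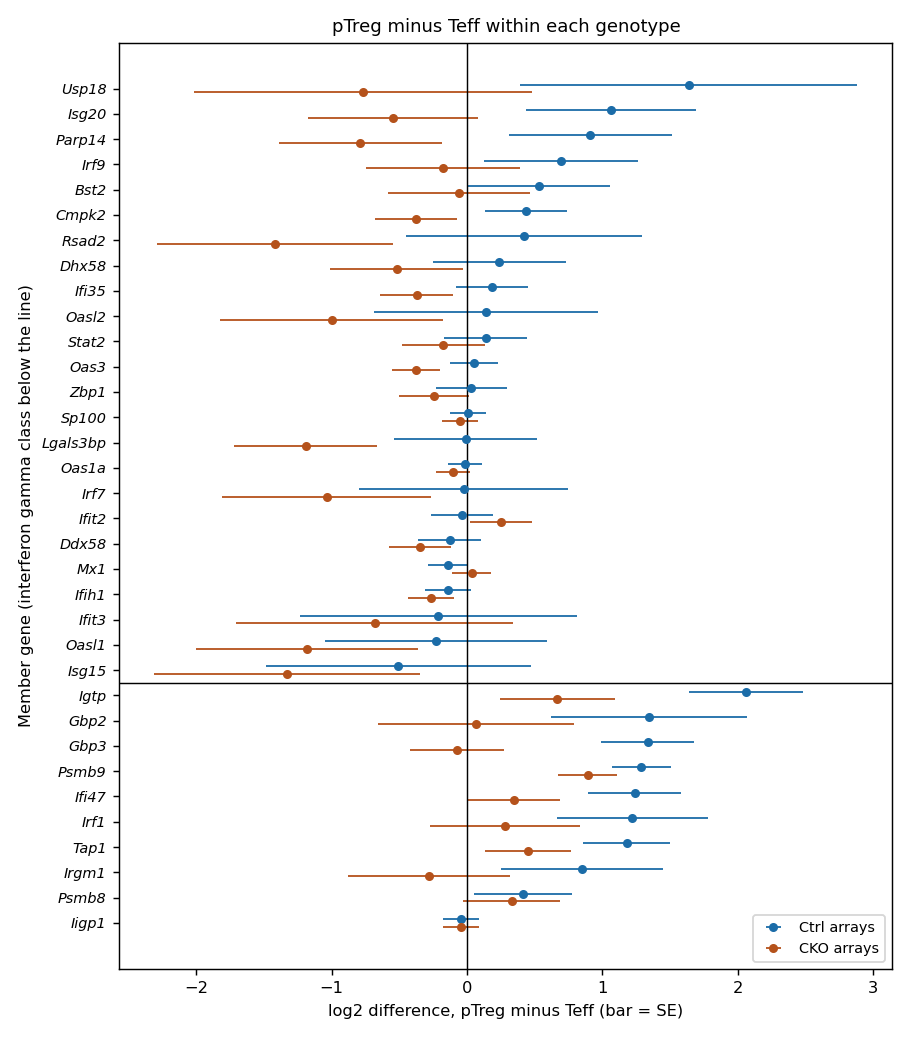
log2 difference of pTreg minus Teff for each of the 34 interferon response genes, in Ctrl arrays and in CKO arrays (points; bars, SE of the fit; n = 3 arrays a group). In Ctrl arrays 9 of the 10 interferon gamma class genes lie right of 0, and in CKO arrays 22 of the 24 type I class genes lie left of 0.

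Among the type I class, the largest Ctrl differences were those of Usp18 (1.64 ± 1.25) and Isg20 (1.07 ± 0.63), a nuclease that degrades viral RNA, and none passed the threshold. The other, dimmer Usp18 probe kept gave a difference of only 0.26. Ifih1 (MDA5, a sensor of long double-stranded RNA) read 4.81, 4.59 and 4.67 in Ctrl pTreg and 4.86, 5.0 and 4.62 in Ctrl Teff, with a difference of -0.14 ± 0.17. Ddx58 (RIG-I, a sensor of RNA ends) read 4.79, 4.78 and 5.13 in Ctrl pTreg and 4.72, 5.50 and 4.87 in Ctrl Teff, and its difference of -0.13 ± 0.23 turned to 0.11 without the Ctrl Teff array numbered 2. Mx1, a GTPase against influenza-type viruses, read 4.61, 4.41 and 4.41 in Ctrl pTreg and 4.36, 4.75 and 4.74 in Ctrl Teff. These 3 genes read within 1 log2 unit of the array median on every array, and their groups overlapped. The median of all 34 genes, 0.21, was 0.86 without the Ctrl Teff array numbered 2 and fell to 0.04 without the Ctrl Teff array numbered 3, 0.08 without that numbered 1 and 0.10 without the Ctrl pTreg array numbered 1. Without both Teff arrays numbered 2, an alternative chosen after the data were seen, 4 genes passed (Igtp, Isg20, Psmb9 and Tap1), against 0.941% of all genes in either direction; the arrays left out there are the ones on which these genes were seen to be high. The Ctrl pTreg arrays that set these differences also enter the genotype comparison in pTreg.

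In CKO arrays no interferon response gene passed the threshold between pTreg and Teff by limma, where 0.355% of all genes did, and 2 of the 34 had an unadjusted p under 0.05 (10.8% of all genes). The interferon gamma class was higher in pTreg in 7 of 10 genes with a median of 0.31, and the type I class was higher in 2 of 24 with a median of -0.38 (all genes 0.03, 55.7% higher). Groups did not overlap in 4 genes (13.7% of all genes): Psmb9 and Ifit2 were higher and Zbp1 and Ifi35 lower in pTreg. Lgals3bp, a secreted glycoprotein, read 8.05, 8.77 and 6.93 in CKO pTreg and 9.07, 9.80 and 8.46 in CKO Teff, and its groups overlapped (-1.19 ± 0.53, adjusted p = 0.448). Rsad2 (viperin, a radical SAM enzyme that makes a chain-terminating nucleotide) read 6.31, 6.22 and 7.32 in CKO pTreg and 7.14, 9.34 and 7.63 in CKO Teff (-1.42 ± 0.87, adjusted p = 0.642). Oas3, a 2′-5′ oligoadenylate synthetase, read 4.52, 4.41 and 4.70 in CKO pTreg and 4.86, 5.24 and 4.66 in CKO Teff (-0.38 ± 0.18, adjusted p = 0.492). Igtp read 10.30, 10.17 and 10.62 in CKO pTreg and 9.93, 10.41 and 8.75 in CKO Teff, which overlapped (0.67 ± 0.42, adjusted p = 0.656). The median of all 34 genes, -0.25, was -0.01 without the CKO Teff array numbered 2.

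The comparison of CKO with Ctrl within pTreg asks what the loss of Blimp1 was tied to in the regulatory cells. In pTreg, 29 of the 34 genes were lower on the CKO arrays, with a median log2 difference of -0.30 against 0.00 over all genes, of which 50.3% were higher. The type I class was lower in 21 of 24 genes (median -0.26) and the interferon gamma class in 8 of 10 (median -0.36). No gene passed the threshold by limma, where 0.0990% of all genes did; 3 genes (Gbp3, Isg20 and Igtp) had an unadjusted p under 0.05, against 5.33% of all genes. Groups did not overlap in 8 genes, all lower in CKO (Irf1, Zbp1, Isg20, Parp14, Gbp3, Igtp, Ifi47 and Tap1), against 12.3% of all genes in either direction. In bulk RNA, fewer cells with a transcript and less of it per cell cannot be told apart.

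Same-numbered Ctrl and CKO arrays of one cell type deviated together, so the replicate number was also fitted as a block. With the block, Gbp3 and Isg20 fell in CKO pTreg, and 1.30% of all genes passed in that direction. Gbp3 read 11.69, 10.64 and 10.70 on the Ctrl pTreg arrays and 10.09, 9.60 and 10.02 on the CKO pTreg arrays, with every CKO value below every Ctrl value. Its log2 difference was -1.11 ± 0.35 (SE; limma adjusted p = 0.525), and with the block -1.11 ± 0.20 (adjusted p = 0.0273). Isg20 read 7.07, 7.25 and 6.72 on the Ctrl pTreg arrays and 5.37, 5.68 and 4.99 on the CKO pTreg arrays, and each pair differed by more than 1.5 log2 units. Its difference was -1.67 ± 0.63 (limma adjusted p = 0.735), and with the block -1.67 ± 0.25 (adjusted p = 0.0161). With the block and without any one of the 3 pTreg pairs, neither gene passed (adjusted p of 0.0709 to 0.157 for Gbp3 and 0.0799 to 0.107 for Isg20), although the differences stayed between -0.86 and -1.32 and between -1.64 and -1.72.

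Igtp read 11.31, 11.37 and 11.26 on the Ctrl pTreg arrays and 10.30, 10.17 and 10.62 on the CKO pTreg arrays, without overlap (-0.95 ± 0.42, adjusted p = 0.920; with the block 0.110). Parp14, an ADP-ribosyltransferase, read 9.10, 9.24 and 8.84 in Ctrl pTreg and 7.97, 7.86 and 8.09 in CKO pTreg (-1.08 ± 0.60; with the block adjusted p = 0.0823). Ifi47 read 9.11, 9.36 and 9.36 in Ctrl pTreg and 8.28, 8.32 and 9.05 in CKO pTreg (-0.73 ± 0.35; with the block adjusted p = 0.171). Each of these 3 had the CKO array below its Ctrl partner in every pair and did not pass in either fit. Irf1 read 10.53, 10.95 and 10.96 in CKO pTreg against 11.30 to 11.43 in Ctrl, a difference of -0.53 ± 0.55.

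The 5 genes with a positive difference in pTreg were small in size. Psmb8 had the largest, 0.22 ± 0.36, with 11.04, 10.86 and 10.65 on the CKO pTreg arrays against 11.30, 10.25 and 10.32 in Ctrl. The other, dimmer Psmb8 probe kept had the opposite sign (-0.09). Mx1 read 4.62, 4.55 and 4.51 in CKO pTreg (0.08 ± 0.15) and Ifih1 4.91, 4.64 and 4.69 (0.06 ± 0.17), both near the array median and both overlapping Ctrl. The others were Ifit2 (0.01 ± 0.23), of the IFIT family of RNA binders, and Iigp1 (0.04 ± 0.13).

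Pair by pair, 15 of the 34 genes (44.1%) were lower in CKO in all 3 pTreg pairs, against 18.2% of all genes, and 2 (5.88%, against 17.5%) were higher in all 3. The interferon gamma class supplied 7 of the 15. The median difference of the 34 genes was -0.38, -0.14 and -0.18 in the pairs numbered 1, 2 and 3, and was below 0 in each. In the same arrays the neutrophil list averaged 8.35 ± 1.64 (SD, n = 3) in Ctrl pTreg and 7.74 ± 1.45 in CKO pTreg, and the dendritic cell list 7.03 ± 0.47 and 8.13 ± 0.42. In the latter list the log2 CKO minus Ctrl difference was 2.77 ± 0.45 for the transcription factor Batf3 (limma adjusted p = 0.0660), 1.17 for H2-Aa, 0.95 for H2-Ab1 and 0.68 for Cd74, which serve antigen presentation by MHC class II. Flt3 (-0.07) stayed near the array median, and Itgax, Xcr1 and Siglech lay below the filter. The T cell markers averaged 10.27 ± 0.20 in Ctrl pTreg (10.04 to 10.39) and 9.85 ± 0.15 in CKO pTreg (9.68 to 9.99), without overlap. The part of these markers in the genotype difference was not tested.

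**Figure D5:**
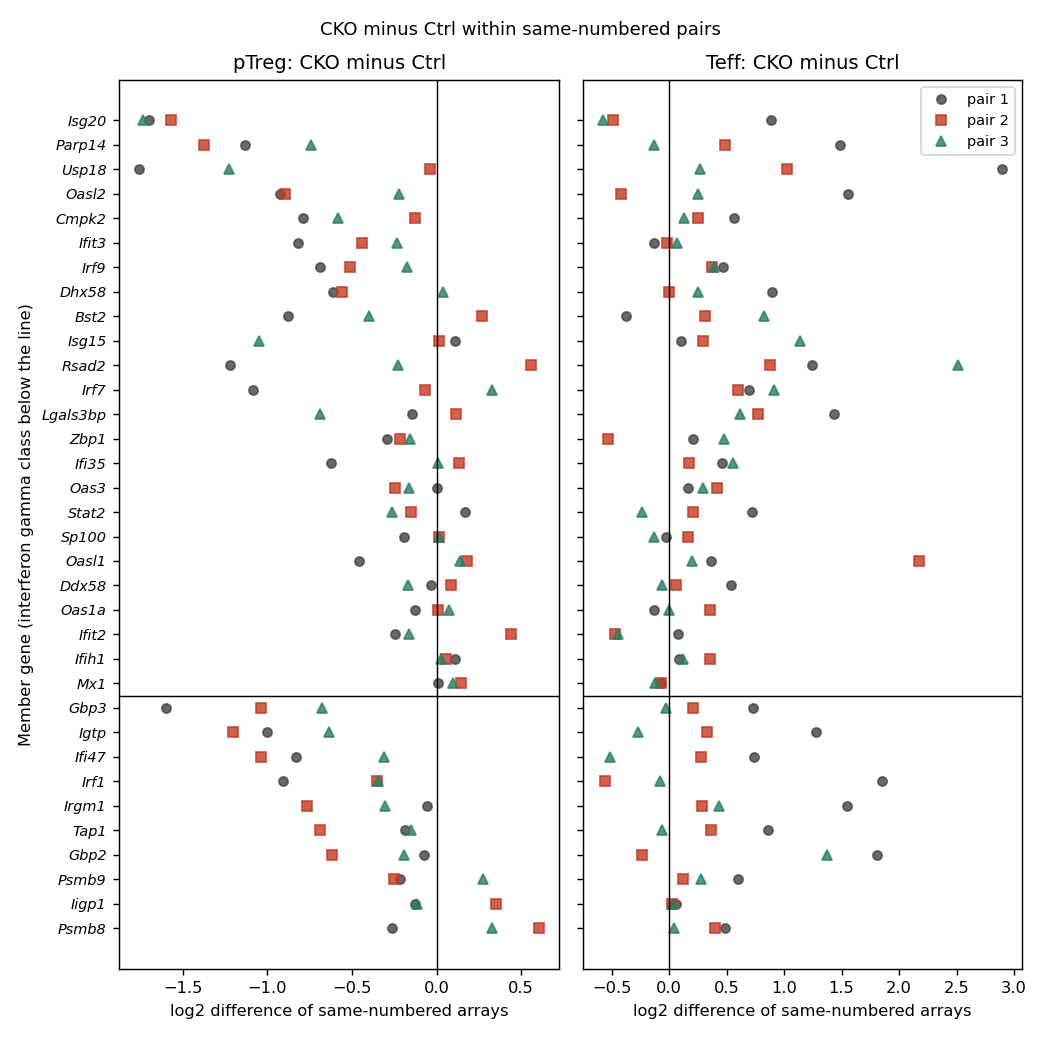
log2 difference of the CKO array minus the Ctrl array of the same number, for each of the 34 interferon response genes in pTreg (left) and Teff (right); marker shape gives the pair. In pTreg most points lie left of 0, and in Teff most lie right of 0, with a wider spread between pairs.

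In Teff the direction was the other one: 30 of the 34 genes were higher on the CKO arrays, with a median log2 difference of 0.32 against -0.02 over all genes, of which 44.2% were higher. The interferon gamma class was higher in 10 of 10 genes (median 0.36) and the type I class in 20 of 24 (median 0.30). No gene passed the threshold by limma (0.0165% of all genes did) and none had an unadjusted p under 0.05 (4.17% of all genes). With the replicate block none passed either (0.0990% of all genes did), and 11 had an unadjusted p under 0.05 (10.4% of all genes). Groups did not overlap in 1 gene, Iigp1, which was higher in CKO by 0.04 and near the array median, against 6.77% of all genes.

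Lgals3bp read 7.64, 9.02 and 7.84 in Ctrl Teff and 9.07, 9.80 and 8.46 in CKO Teff, with a difference of 0.94 ± 0.53 (limma adjusted p = 1.00). Rsad2 read 5.89, 8.47 and 5.12 in Ctrl Teff and 7.14, 9.34 and 7.63 in CKO Teff, the largest difference of the list at 1.54 ± 0.87 (adjusted p = 1.00). Oas3 read 4.70, 4.83 and 4.37 in Ctrl Teff and 4.86, 5.24 and 4.66 in CKO Teff (0.29 ± 0.18, adjusted p = 1.00). In all 3 genes each CKO array was above the Ctrl array of the same number, while the groups overlapped. The 4 genes with a negative difference were Ifit2 (-0.28 ± 0.23), Mx1 (-0.09 ± 0.15), Isg20 (-0.06 ± 0.63) and Ifit3 (-0.03 ± 1.02). Ifit2 read 5.12, 5.93 and 5.70 in Ctrl Teff and 5.21, 5.46 and 5.25 in CKO Teff. Mx1 read 4.29, 4.68 and 4.62 in CKO Teff, and its sign turned to 0.03 without the CKO Teff array numbered 1. Isg20 read 4.91, 7.45 and 5.48 in Ctrl Teff and 5.80, 6.97 and 4.91 in CKO Teff, and its sign turned without the Ctrl Teff array numbered 2 (0.69) or the CKO Teff array numbered 3 (0.43). For these 4 genes the direction in Teff was within the spread between arrays, and the groups overlapped in all of the 34 genes but Iigp1.

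In Teff, 15 genes (44.1%, against 12.8% of all genes) were higher in CKO in all 3 pairs, and the median difference was 0.58, 0.26 and 0.13 in the pairs numbered 1, 2 and 3. The median of 0.32 was 0.05 without the CKO Teff array numbered 2, 0.13 without the Ctrl Teff array numbered 3, 0.17 without the Ctrl Teff array numbered 1, 0.60 without the CKO Teff array numbered 3 and 0.70 without the Ctrl Teff array numbered 2. Without both Teff arrays numbered 2 it was 0.35. The NK and CD8 T cell list averaged 5.84 ± 0.08 (SD, n = 3) in Ctrl Teff against 7.05 ± 1.02 in CKO Teff, the dendritic cell list 6.43 ± 0.67 and 7.90 ± 0.45, and the neutrophil list 8.53 ± 1.94 and 8.86 ± 1.20. Their part in the Teff values was not tested.

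The test of whether the genotype difference itself differed between pTreg and Teff found no interferon response gene past the threshold by limma, without the block (0.0165% of all genes passed) or with it (0.0413%). The genotype difference was lower in pTreg than in Teff in 32 of the 34 genes, with a median of -0.79 against 0.02 over all genes, of which 53.6% were positive. Gbp3 had the smallest p, with -1.41 ± 0.49 (unadjusted p = 0.0155, adjusted p = 1.00; with the block 0.133). Igtp followed with -1.39 ± 0.60 (adjusted p = 1.00; with the block 0.208). Unadjusted p was under 0.05 in 2 genes (3.48% of all genes) and, with the block, in 20 (11.4% of all genes). The median was -0.30 without the CKO Teff array numbered 2, -0.48 without the Ctrl Teff array numbered 3, -0.50 without the Ctrl Teff array numbered 1 and -1.38 without the Ctrl Teff array numbered 2.

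Both classes took their highest group mean in different groups. Of the 10 interferon gamma class genes, 8 had it in Ctrl pTreg, 1 in CKO pTreg and 1 in CKO Teff. Of the 24 type I class genes, 14 had it in CKO Teff, 7 in Ctrl pTreg and 3 in Ctrl Teff. From the highest to the lowest, the type I class means were 6.51 ± 0.78 (SD, n = 3) in CKO Teff, 6.32 ± 0.17 in Ctrl pTreg, 6.11 ± 0.86 in Ctrl Teff and 5.98 ± 0.05 in CKO pTreg. For the interferon gamma class they were 9.71 ± 0.09 in Ctrl pTreg, 9.30 ± 0.14 in CKO pTreg, 9.03 ± 0.61 in CKO Teff and 8.62 ± 0.60 in Ctrl Teff. The Ctrl and CKO pTreg arrays did not overlap in either class mean, while the Teff arrays of both genotypes did.

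Other genes of the pathway were followed as lists. Of 8 ligands, 3 were tested. Ifng, which encodes interferon gamma, read 14.22, 12.25 and 14.82 in Ctrl pTreg, 14.62, 14.15 and 14.19 in CKO pTreg, 14.98, 14.98 and 14.82 in Ctrl Teff and 14.98, 14.98 and 14.73 in CKO Teff. On 4 arrays it stood at 14.98, the highest value in the table, so its order among those arrays, and the size of any difference from the Teff groups, cannot be read. Ifna1 and Ifna2, which encode interferon alphas, stayed between 4.53 and 4.84, near the array median.

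Of 9 receptor and kinase genes, 8 were tested and none passed in any comparison. Ifngr1, the ligand-binding chain of the interferon gamma receptor, read 8.51, 7.43 and 7.98 in Ctrl pTreg and 6.70, 6.35 and 6.89 in CKO pTreg, without overlap (-1.33 ± 0.61, limma adjusted p = 0.955; with the block 0.120). In Teff it read 7.02, 7.54 and 6.86 in Ctrl and 7.09, 9.15 and 6.12 in CKO. All 8 genes of this list were lower in CKO pTreg, with a median of -0.20. Ifngr2, the second chain, ran from 4.28 to 5.0 and Ifnar2, a chain of the type I receptor, from 4.73 to 5.45. Of 14 transducers, regulatory factors and inhibitors, 13 were tested and none passed. Socs1, which inhibits JAK kinases, read 5.28, 5.25 and 5.48 in Ctrl pTreg and 5.77, 5.73 and 5.52 in CKO pTreg, higher in CKO in all 3 pairs (0.33 ± 0.29, adjusted p = 1.00).

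Of 47 further interferon-induced genes, 31 were tested, and 28 of these were lower in CKO pTreg (median -0.42) while 16 were higher in CKO Teff (median 0.02). None passed without the block. With the block 4 of the 31 fell in CKO pTreg: Oas1g (-1.58 ± 0.22, adjusted p = 0.0122), Ifi27l2a (-0.76 ± 0.14, adjusted p = 0.0292), Dtx3l (-0.82 ± 0.17, adjusted p = 0.0468) and Ifitm2 (-0.76 ± 0.16, adjusted p = 0.0492). Oas1g is an oligoadenylate synthetase gene, Ifitm2 encodes a membrane protein that blocks viral entry, and Dtx3l is the ubiquitin ligase partner of Parp9. Oas1g read 8.52, 8.61 and 8.01 in Ctrl pTreg and 6.49, 7.81 and 6.11 in CKO pTreg. Without the block its difference had an SE of 0.99, more than 4 times that of the blocked fit, since its Teff values ran from 5.48 to 9.06. Of 24 further interferon gamma-induced genes, 18 were tested, 16 were lower in CKO pTreg (median -0.18), and 1 fell with the block: Icam1, an adhesion ligand of integrins, with 8.68, 9.14 and 8.74 in Ctrl pTreg and 7.86, 7.97 and 7.67 in CKO pTreg (-1.02 ± 0.19, adjusted p = 0.0334). For Oas1g and Icam1 every CKO pTreg value lay below every Ctrl pTreg value. The share of all genes falling in the blocked fit was the 1.30% given above.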

How the data were processed

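The values used were log2 expression values that the authors deposited for 12 Illumina arrays, already normalized; per the submitters' processing notes, GenomeStudio and limma 3.30.11 were used, and how they were normalized is not stated in the sources used here. Of 31641 probes, 28197 carried 1 gene symbol in the platform annotation, 5 several and 3439 none; only the first were used. Probes above their array's median on at least 3 arrays were kept (17579), with the brightest probe for each of 12119 genes. For 13 members, 18 other probes were kept, and their difference had the same sign as that of the probe used in 13 (CKO minus Ctrl in pTreg), 14 (in Teff), 14 (pTreg minus Teff in Ctrl) and 11 (in CKO).

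Group means over all 12 arrays were fitted with limma 3.58.1 (R 4.3.3; lmFit, eBayes), two-sided, with Benjamini-Hochberg adjustment over all genes and a threshold of 0.05; ± values without another label are standard errors of that fit. Both fits were run on simulated data, for CKO minus Ctrl in pTreg only. Same-numbered arrays of a cell type shared part of their noise there by construction. That run therefore cannot show whether the block suits these data, and it does not cover the other comparisons. Residuals of same-numbered arrays correlated at 0.519 to 0.589 between genotypes in pTreg and at 0.348 to 0.737 in Teff. Because no other number gave a higher correlation for any array, the title numbers were taken to pair the genotypes. Between pTreg and Teff the correlations of same-numbered arrays were mixed (-0.266 to 0.325). The same number gave the highest correlation for replicate 3 in Ctrl and for replicates 1 and 3 in CKO, but not for the others. The numbers were therefore not taken to pair pTreg with Teff. With the block, the number within a cell type was a fixed term.

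The members, lists and tests were chosen with earlier results of these data known. Genes were given per-array values if past the threshold in either fit, among the 3 smallest p in each direction of the 4 group comparisons, or among the 3 widest ranges of group means. Irf7, Irf9, Isg15, Ifit3, Oasl1, Dhx58, Bst2, Parp14, Ifi47 and Irf1 were added after their values were seen, as were genes outside the rule that have a difference but no array values. Of the pathway lists, Ifng, Ifnar1, Ifnar2, Ifngr1, Ifngr2, Socs1 and those past the threshold were to be named; no probe tested here named Ifnar1. No library was left out. Motifs were searched in the RefSeq promoter table.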

Additional observations from a re-analysis of the deposited data

Results flagged for a closer look

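In 5 genes every pTreg pair moved one way and every Teff pair the other in the same-numbered differences of CKO minus Ctrl. In 4 of them CKO was lower in all 3 pTreg pairs and higher in all 3 Teff pairs, as it was in 1.94% of all genes. In Mx1, which read 4.29 to 4.75 over all arrays, near the array median, the directions were the opposite. The share of all genes with those opposite directions was not counted. These directions are those of the probe used for each gene. For Usp18 on that probe, the pTreg pair numbered 2 differed by only -0.04. The other, dimmer Usp18 probe kept was higher in CKO in that pair (6.67 against 5.59). The dimmer Irgm1 probe kept had a positive genotype difference in pTreg (0.12). That of Irf9 had the same signs as the probe used (-0.36 in pTreg and 0.55 in Teff). The test of the difference between cell types (limma, 12 arrays) gave a log2 genotype difference in pTreg minus that in Teff of -2.41 ± 1.76 (SE) for Usp18, -1.13 ± 0.84 for Irgm1, a GTPase that directs autophagy to vacuoles, -0.87 ± 0.81 for Irf9, -0.81 ± 0.43 for Cmpk2, a mitochondrial nucleotide kinase next to Rsad2, and 0.17 ± 0.21 for Mx1. None passed: the adjusted p was 1.00 for each. With the replicate block it was 0.225, 0.247, 0.154, 0.218 and 0.736 in the same order. Groups of 3 arrays are too small for a test of single outlying samples.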

How the results depend on the processing

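Each result was recomputed under up to 28 alternatives. For named genes 548 values kept their direction and side of the threshold, 18 newly passed, 5 no longer passed and 11 changed sign. Medians moved by less than 0.53, the SD of the members' mean within groups, in 123 and by more in 4. That cutoff exceeds the size of the medians of the 4 group comparisons (-0.30, 0.32, 0.21 and -0.25). A median could therefore reach 0 or change sign and not count as moved. Counts of genes past the threshold kept in 108, rose in 14 and fell in 5. The median log2 difference of the 34 genes ran from -0.37 to -0.22 for CKO minus Ctrl in pTreg and from 0.05 to 0.70 in Teff over all alternatives. The cause of the changes below was not tested.

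With the replicate block, 2 genes passed for CKO minus Ctrl in pTreg (2.18% of all genes in either direction). With the block and without the Teff pairs numbered 1, 2 and 3 there were 4, 2 and 3 (2.44%, 2.15% and 2.62%). With the block, 0 passed for pTreg minus Teff in Ctrl, where the numbers were not taken to pair the arrays. Over all genes the block moved the calls from 12 to 264 in pTreg, from 2 to 12 in Teff, from 2 to 5 for the difference between cell types, and from 123 to 4 (Ctrl) and 43 to 2 (CKO) for pTreg minus Teff. It changed no other call of a count. With the block and without the Teff pair numbered 2, 1 gene passed in Teff (Gbp2; 0.281% of all genes), and without that numbered 3, 1 gene (Parp14; 0.982%) for the difference between cell types. The count for pTreg minus Teff in Ctrl was 2 with the filter at the 75th percentile (2.11% of all genes passed), 2 with the trended robust fit (1.05%), 5 with array weights (2.04%), 0 with only the arrays compared (0.239%), 0 to 3 leaving out each array (0.363% to 1.37%), and 4 without both Teff arrays numbered 2 (0.941%), against 1 (1.01%) as reported. In CKO it was 1 (Psmb9) with array weights (2.02%). The median for pTreg minus Teff in Ctrl was 0.85 with the 75th percentile filter, 0.86 without both Teff arrays numbered 2, and 0.036 to 0.859 leaving out each array; for the difference between cell types it was -1.38 to -0.30 leaving out each array.

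Signs turned for Ddx58 in pTreg minus Teff in Ctrl (0.0037 with array weights, 0.11 without both Teff arrays numbered 2, and -0.285 to 0.109 leaving out each array), Ifih1 in CKO minus Ctrl in pTreg (-0.019 without the CKO pTreg array numbered 1, and up to 0.123 leaving out others), Mx1 in Teff (0.032 without the CKO Teff array numbered 1; without the array numbered 2 of either Teff group or the Ctrl Teff array numbered 3 it did not pass the filter) and Isg20 in Teff (0.38 with array weights, -0.598 to 0.693 leaving out each array, 0.15 without both arrays numbered 2 with or without the block, 0.20 with the block and without pair 3). Signal near the array median limits Mx1, Sp100, Iigp1, Oas1a, Oas3, Ifih1 and Ddx58.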
